A study of Rattus norvegicus with 10 samples.

Results

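The mitochondrial ribosomal proteins are the proteins that, with ribosomal RNA made inside the organelle, form the ribosome of mitochondria. Their genes were taken as those with an Mrpl or Mrps symbol followed by a digit in the platform annotation, read from probe sets (the groups of short probes that each measure a transcript) with exactly 1 symbol. This gave 97 probe sets and 73 genes, out of 31099 probe sets on the array, 20832 of which carried 1 symbol and stood for 14217 genes. Each gene was represented by its brightest probe set. By the current structural nomenclature 48 of the genes code for large subunit proteins and 25 for small subunit proteins. Mrps18a and Mrps30 were counted in the large subunit, where their proteins lie, in spite of their symbols.

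The study asked how gene expression in several organs of the rat responds to mild and moderate calorie restriction (CR), a cut in food supply without malnutrition. Male Wistar rats, an outbred laboratory strain, entered the experiment at 6 weeks of age. The control group received the full recorded intake of a powdered purified diet, and the restricted groups received 5, 10, 20 or 30% less of the same diet for 1 week. All groups, the control included, were fasted for 16 h before the brain was taken. According to the methods, RNA came from the hypothalamus, the brain region that governs feeding and energy balance. Equal groups of 5 rats gave 1 RNA pool each, which was hybridised to 1 Affymetrix rat GeneChip array, so each group had 1 array and no measure of the variation between animals. The 5 arrays of 1 week were used here, and the arrays of 1 month were not analysed because their rows do not follow the probe set identifiers.

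The mitochondrial ribosome translates the small set of messages encoded by mitochondrial DNA, all of which code for subunits of the respiratory chain and the ATP synthase. Its proteins are encoded in the nucleus, made on cytosolic ribosomes and imported, so their genes must be expressed alongside a separate set of RNA components from the mitochondrial genome. Some have counterparts in bacterial ribosomes and others were acquired in mitochondria, which have more ribosomal protein and less ribosomal RNA than bacteria. Since oxidative phosphorylation depends on this machinery, it is often followed in work on diet and energy supply.

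Values are MAS5 signals on a linear scale, in which every array was scaled to a common level. Differences are given as log2 of the CR signal minus log2 of the control signal, with the SD over the 4 CR arrays. The 4 CR levels were set together against the single control array with limma across all 15521 probe sets above a brightness filter, and a gene was called higher or lower at an adjusted p (Benjamini-Hochberg) under 0.05. The p-values measure the spread between the 4 CR pools, and neither the spread among control pools nor that among rats entered them. All 73 genes passed the filter.

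The control array differed from the others over all probe sets, and this touches every value below. Log2 signals of all probe sets correlated at 0.852 to 0.874 between the control and the CR arrays and at 0.912 to 0.922 among the CR arrays. For the mitochondrial ribosomal genes the ranges were 0.814 to 0.857 and 0.961 to 0.983. Signals under 10 made up 24.0% of the control array and 11.7 to 14.4% of the CR arrays. Foreign poly-A RNAs, spiked into the sample ahead of labelling, gave more signal in control for 24 of 24 probe sets, with a median of 1.23 on the log2 scale, while the spike-ins added at hybridization did so for 6 of 18. For Gapdh the log2 ratio of 3′ to 5′ signal was 0.19 in control and 0.40 to 0.79 in CR. For actin this log2 ratio was 1.90 in control and 2.19 to 2.80 in CR. CR and the properties of the control array cannot be told apart in this design.

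Markers of the tissue were present. Of 11 measured hypothalamic neuron genes, those for melanin-concentrating hormone, oxytocin, vasopressin and orexin (Pmch, Oxt, Avp and Hcrt) had signals from 1807.5 to 8942.1 on all arrays, whereas Pomc, the precursor of melanocortins, was near background at 2.6 to 14.8. The summed signal of the 11 was 22107.2 in control and 24830.9 to 26971.8 in CR, and of the 10 tested 3 were called higher and 1 lower. Of 6 pituitary markers, the 3 above the filter (Tshb, Lhb and Cga) rose, with control signals of 33.6, 43.3 and 877.4. The filter used the mean of all 5 arrays, so a dim gene could pass it through its CR signals. The sum of the 6 was 988.4 in control, most of it from 1 gene, against 2046.6 to 2848.7 in CR. The defining markers Prl (0.6 in control, 5.1 to 29.8 in CR) and Gh1 (10.7 in control, 8.0 to 50.6 in CR) stayed at or near background. The 6 endothelial markers summed to 1645.3 in control and 1121.1 to 1248.6 in CR, with 1 called lower (Cldn5) and none higher. They did not move together, since their log2 differences ranged from −1.36 to 1.28. At 5, 20 and 30% CR, 2 of the 6 were past 1.5-fold higher. The 7 microglial markers summed to 1807.3 in control and 1808.4 to 1918.6 in CR, with 1 of 5 tested called higher. The sums of the neuron, astrocyte and oligodendrocyte lists in control lay within their CR ranges, although 2 of 6 oligodendrocyte markers, Mog and Mal, were lower. Of 7 neuron markers tested, 2 were higher and 2 lower, and of 6 astrocyte markers tested, 1 was higher and 1 lower. The part of these markers in the results below was not tested. In a bulk sample fewer cells of a type and less RNA per cell cannot be told apart.

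As a family the mitochondrial ribosomal genes moved in both directions. Relative to control, 12 of 73 (16.4%) were higher under CR and 6 of 73 (8.22%) were lower, and 55 were not called. Over all probe sets tested, 14.5% were called higher and 11.0% lower. Over all named genes with 1 probe set each, chosen in the same way as the family, 11.6% were higher and 11.3% lower. Under MAS5 scaling the shares among the ribosomal genes lay near these values. The median log2 difference of the 73 genes was 0.00, beside 0.03 over all probe sets tested, and single genes ranged from −1.58 to 1.26. All 4 CR arrays were above control for 27 genes (37.0%, beside 37.1% of all probe sets tested) and below it for 23 (31.5%, beside 33.1%). The remaining 23 genes had CR arrays on both sides of control. Summed over the 73 genes, the signal was 41481.1 in control and 43842.7 to 45922.0 in CR.

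The split between higher and lower calls depended on the scaling of the arrays. Centring each array on the median of all probe sets moved the median difference of all tested probe sets from 0.03 to −0.41, and under it 4 of the genes were called higher and 28 lower, with a median of −0.43. Quantile scaling gave 17 higher (23.3%) and 5 lower (6.85%) genes, beside 11.1% and 8.45% of all tested probe sets, and the family median was 0.09 above that of all tested probe sets. Cyclic loess scaling gave 14 higher (19.2%) and 5 lower (6.85%), beside 12.7% and 11.7%, with a median 0.07 above. Under MAS5 scaling the family median was below that of all tested probe sets, with a difference of −0.02. Directions below are therefore relative to the MAS5 scaling, and genes whose call was lost under the median scaling are named.

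**Figure D1:**
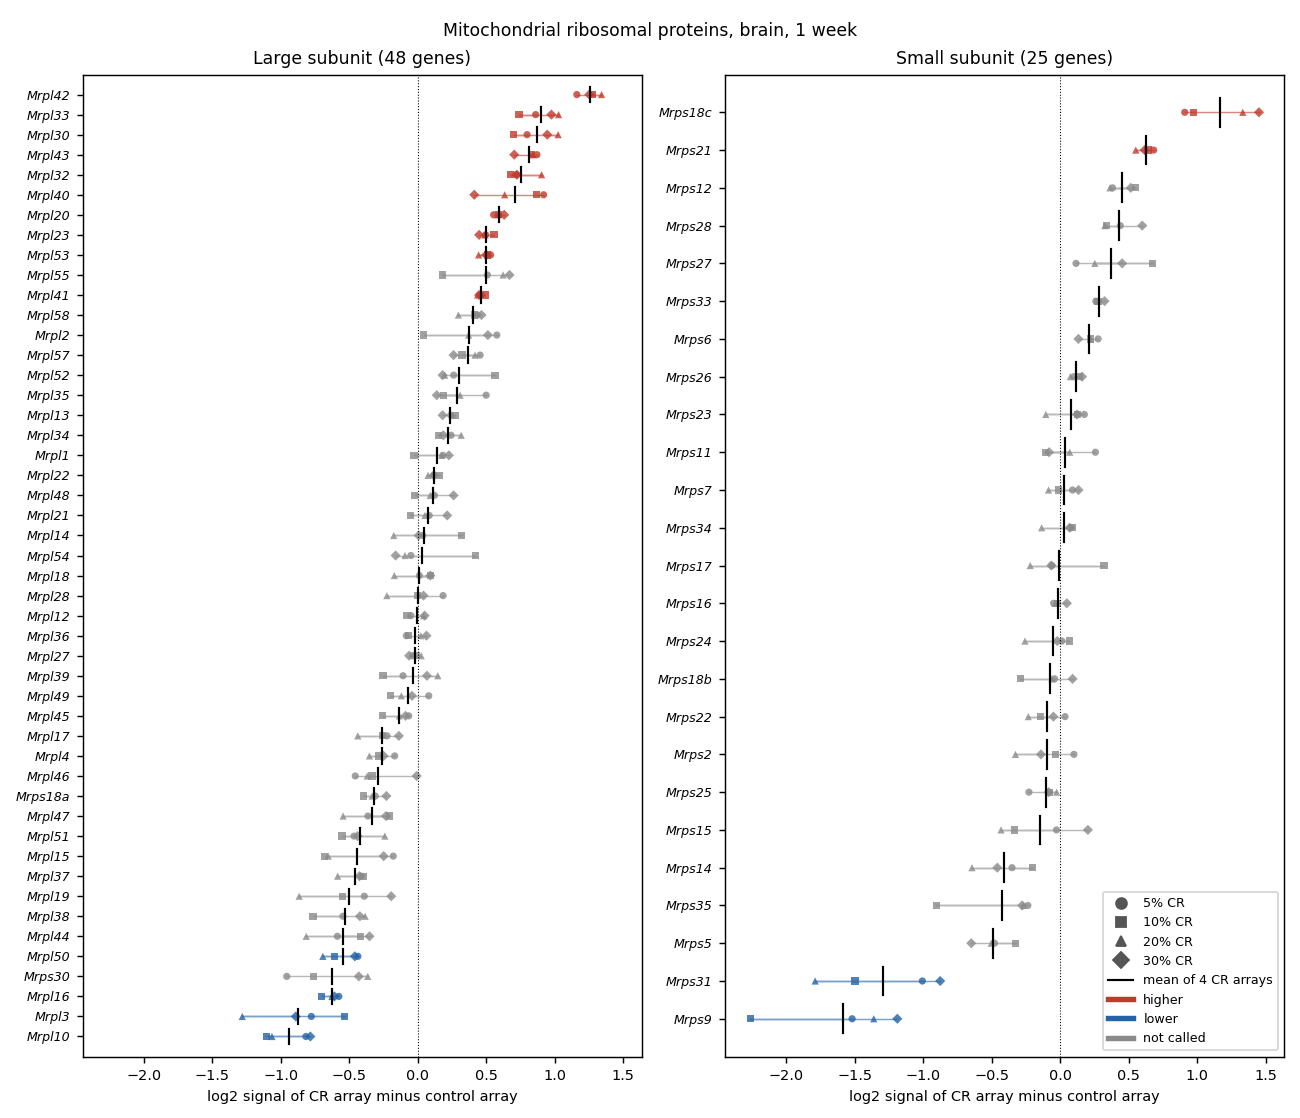
Log2 signal of each CR array minus that of the control array (horizontal axis) for the 48 large subunit and 25 small subunit genes, with 1 symbol per CR level, a line over the range of the 4 CR arrays and a bar at their mean. The called genes, 12 higher (red) and 6 lower (blue), lie at the ends of a continuous spread from −1.58 to 1.26, and for most genes the 4 CR arrays lie close together.

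In the large subunit, 10 of 48 genes were higher and 4 lower, with a median difference of 0.02. In the small subunit the counts were 2 and 2 of 25, with a median of −0.01. Among the 42 genes whose proteins keep a bacterial name in the nomenclature, 7 were higher and 4 lower. Among the 31 named there as specific to mitochondria, 5 were higher and 2 lower. These classes follow the names, and the second includes Mrps18a and Mrps18b, which have a bacterial relative. The differences between these classes were not tested.

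Mrpl42, which codes for a large subunit protein specific to mitochondria, showed the largest increase. Its signal was 563.6 in control and 1260.2, 1362.8, 1428.2 and 1342.3 at 5, 10, 20 and 30% CR. The 4 CR arrays lay close together and all far above control. This is a log2 difference of 1.26 ± 0.07 (SD, n = 4), or 2.39-fold, with an adjusted p of 2.6e-04 by limma.

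Mrps18c was the only higher gene of the small subunit besides Mrps21, and codes for 1 of 3 mammalian relatives of a single bacterial small subunit protein. Its signal was 157.8 in control and 296.5, 310.4, 397.8 and 431.7 at 5, 10, 20 and 30% CR. All CR arrays were above control and the signal was higher at each further level of restriction. The log2 difference was 1.17 ± 0.27 (SD, n = 4), or 2.25-fold, with an adjusted p of 0.0054. Its relatives were not called under MAS5 scaling, although Mrps18a was called lower under the median scaling. Mrps18a had 387.3 in control and 312.3, 294.0, 307.3 and 330.3 at 5, 10, 20 and 30% CR (−0.32 ± 0.07, adjusted p = 0.172), with every CR array below control. Mrps18b had 438.3 in control and 426.2, 358.0, 420.6 and 466.8 (−0.08 ± 0.16, adjusted p = 0.783), with CR arrays on both sides of control. Whether the 3 relatives differed from one another was not tested.

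The next increases were again in the large subunit. Mrpl33 codes for a very small protein with a bacterial counterpart, and its signal was 873.9 in control and 1586.5, 1458.6, 1781.3 and 1717.9 at 5, 10, 20 and 30% CR (0.90 ± 0.13, adjusted p = 0.0014). Mrpl30, also with a bacterial counterpart, had 444.1 in control and 772.0, 721.6, 903.5 and 855.0 (0.87 ± 0.15, adjusted p = 0.0031). Both genes were above control on all CR arrays and had their lowest CR signal at 10% and their highest at 20%. Mrpl43, specific to mitochondria, had 634.4 in control and 1159.1, 1127.6, 1136.2 and 1033.4 (0.81 ± 0.07, adjusted p = 0.0015). Mrpl32, whose protein is matured by a protease of the inner membrane before it enters the ribosome, had 337.3 in control and 554.7, 538.1, 631.0 and 557.0 (0.75 ± 0.10, adjusted p = 0.0053). The CR signals of these genes did not overlap with control. The calls of Mrpl30 and Mrpl32 were lost under the median scaling, and those of Mrpl33 and Mrpl43 were kept.

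Mrpl40, a large subunit gene specific to mitochondria, was higher at 202.7 in control and 383.1, 369.1, 314.6 and 269.7 at 5, 10, 20 and 30% CR (0.71 ± 0.23, adjusted p = 0.036). Here the signal was highest at 5% CR and lower at each further level, the opposite order to Mrps18c. Its call did not hold without the 5% array (adjusted p = 0.0664), without the 10% array (adjusted p = 0.0663), or under the median scaling.

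The other increases were smaller and belonged to bright probe sets with little spread among the CR arrays. Mrps21, a small subunit gene with a bacterial counterpart, had 814.6 in control and 1307.7, 1271.5, 1194.5 and 1249.9 at 5, 10, 20 and 30% CR (0.62 ± 0.05, adjusted p = 0.0039). Mrpl20 had 950.0 in control and 1394.3, 1427.2, 1427.8 and 1470.7 (0.59 ± 0.03, adjusted p = 0.0039). Mrpl23, whose bacterial counterpart lies at the exit of the tunnel through which the new chain leaves, had 807.9 in control and 1138.9, 1188.1, 1134.9 and 1101.7 (0.50 ± 0.04, adjusted p = 0.0114). In each of these genes the spread of the CR arrays was narrow beside the distance to control. Mrpl41, specific to mitochondria and the brightest gene of the family by mean log2 signal, had 1366.1 in control and 1881.7, 1919.3, 1848.6 and 1863.0 (0.46 ± 0.02, adjusted p = 0.0099). Mrpl53, named after its values were seen because it completes the 12 higher genes, had 888.6 in control and 1284.2, 1264.8, 1208.6 and 1255.3 (0.50 ± 0.04, adjusted p = 0.0102). None of these 5 calls held under the median scaling.

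Of the lower genes, Mrps9 showed the largest decrease. It codes for a small subunit protein with a bacterial counterpart. Its signal was 314.6 in control and 109.8, 65.6, 122.5 and 138.0 at 5, 10, 20 and 30% CR. All CR arrays were far below control and the lowest was the 10% array. The log2 difference was −1.58 ± 0.47 (SD, n = 4), which is 2.99-fold lower, with an adjusted p of 0.0127. Mrps31, a small subunit gene specific to mitochondria, had 319.3 in control and 159.0, 113.0, 92.4 and 174.0 (−1.29 ± 0.43, adjusted p = 0.0199). These are the called genes with the widest spread among the CR arrays, and in both the 30% array was the nearest to control.

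The other 4 lower genes code for large subunit proteins. Mrpl10, whose protein anchors the stalk that recruits translation factors, had 365.8 in control and 207.6, 170.2, 174.8 and 212.3 at 5, 10, 20 and 30% CR (−0.94 ± 0.16, adjusted p = 0.0093). Mrpl3, whose bacterial counterpart reaches towards the peptidyl transferase centre, had 793.4 in control and 462.6, 547.7, 326.2 and 427.8 (−0.87 ± 0.31, adjusted p = 0.0232). All CR arrays were below control in both genes, and Mrpl3 varied more between levels. Mrpl16, with a bacterial counterpart, had 434.9 in control and 291.5, 267.3, 281.5 and 285.1 (−0.63 ± 0.05, adjusted p = 0.018). Mrpl50, specific to mitochondria, had 507.9 in control and 374.9, 333.4, 314.0 and 369.2 (−0.55 ± 0.12, adjusted p = 0.0347). The call of Mrpl50 did not hold without the 10% array (adjusted p = 0.0616) or without the 20% array (adjusted p = 0.0536).

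**Figure D2:**
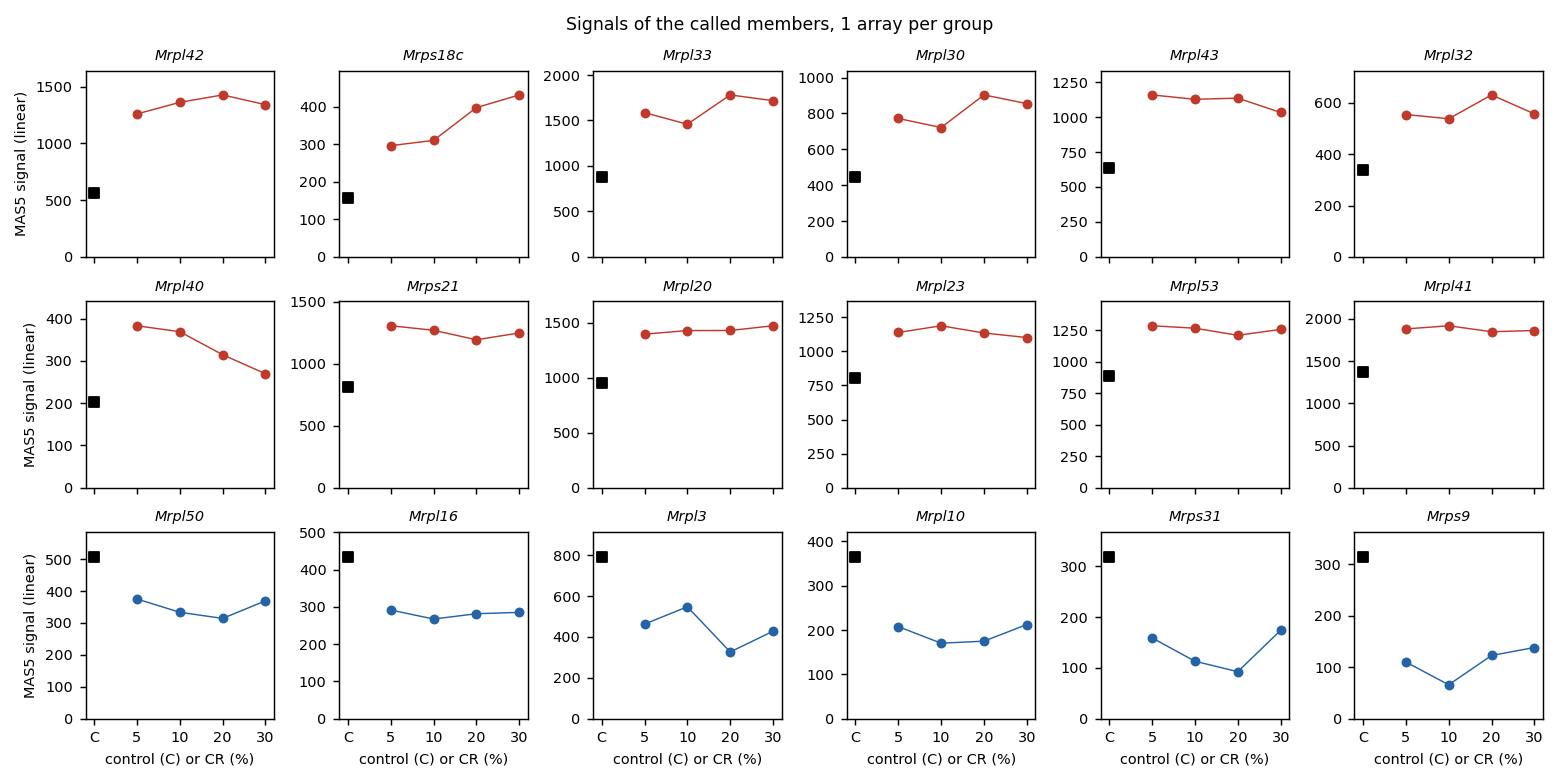
MAS5 signal (vertical axis, linear, from 0) of the 18 called genes on the control array (C, black square) and on the arrays of 5, 10, 20 and 30% CR (circles), with 1 array per group and no error bars. In each of the 18 genes all 4 CR arrays lie on the same side of the control, which the call itself favours. The order of the CR levels differs from gene to gene, with Mrps18c at 296.5 to 431.7 and Mrpl40 at 383.1 to 269.7 from 5 to 30% CR.

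Among the genes that were not called, 15 had all 4 CR arrays above control, with differences of 0.12 to 0.49, and 17 had all 4 below, with differences of −0.63 to −0.10. The lowest of these was Mrps30, a large subunit gene specific to mitochondria. It had 563.7 in control and 290.3, 332.9, 437.5 and 418.0 at 5, 10, 20 and 30% CR (−0.63 ± 0.28, adjusted p = 0.0659), with the 5% array farthest from control. It was called lower without the 20% array (adjusted p = 0.0395) or without the 30% array (adjusted p = 0.0458). Mrpl12, whose protein is the stalk protein that binds Mrpl10 and also associates with the mitochondrial RNA polymerase, had 658.1 in control and 635.3, 622.9, 677.8 and 681.1 (−0.01 ± 0.07, adjusted p = 0.968). Its CR arrays lay on both sides of control. Mrpl17, second to Mrpl41 in mean log2 signal and with the highest control signal of the family, had 1921.6 in control and 1643.3, 1607.6, 1417.6 and 1745.6 (−0.27 ± 0.13, adjusted p = 0.158), all below control. Mrps27, with Mrps9 the dimmest, had 114.7 in control and 124.3, 183.4, 136.7 and 157.0 (0.37 ± 0.24, adjusted p = 0.334), all above control.

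Calls were unevenly placed along the brightness of the genes. Brightness was the mean log2 signal over all arrays used, most of which were CR arrays. A gene higher under CR was thus shifted towards the brighter genes, and a lower gene towards the dimmer ones. The split is therefore not independent of the calls, and how far this shaped the counts was not tested. Of the 37 genes at or above the median brightness of the family, 10 were higher and 1 lower, with a median difference of 0.12. Of the 36 dimmer genes, 2 were higher and 5 lower, with a median of −0.10. Over all named genes at or above the same brightness, 18.0% of 2245 were higher and 21.3% lower, and below it 9.58% of 7234 tested genes were higher and 8.25% lower. The difference between the brighter and the dimmer genes was not tested.

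Promoter sequences are shown for 8 of the called genes, 6 because they hold a searched motif within the 150 bases before the start and 2, Mrpl42 and Mrps9, because they changed most in each direction. Some families of factors are well known at nuclear genes for mitochondrial proteins, namely the ETS factors that include GABP, NRF1 and YY1. The searched letters were CCGGAAG for ETS, GCATGCGC for NRF1 and AAGATGGC for YY1, on both strands, with overlapping matches counted. ETS and YY1 matches can share the letters AAG. The windows are 150 bases before the annotated start, in the direction of transcription, from RefSeq on the GRCr8 assembly, and capitals mark the motif letters. They lie at chr14:9122907-9123056 on the minus strand for Mrps18c, chr6:30553988-30554137 on the minus strand for Mrpl33, chr17:55260501-55260650 on the plus strand for Mrpl32 and chr16:76324066-76324215 on the minus strand for Mrps31. Those of Mrpl23 at chr1:207116780-207116929 and of Mrpl53 at chr4:117172893-117173042 are both on the plus strand. The windows of Mrpl42 at chr7:32028523-32028672 on the minus strand and of Mrps9 at chr9:52605528-52605677 on the plus strand hold none of the motifs.
Mrps18c: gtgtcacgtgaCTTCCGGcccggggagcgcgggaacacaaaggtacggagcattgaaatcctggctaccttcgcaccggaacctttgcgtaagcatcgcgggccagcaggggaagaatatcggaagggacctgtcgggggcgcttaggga
Mrpl33: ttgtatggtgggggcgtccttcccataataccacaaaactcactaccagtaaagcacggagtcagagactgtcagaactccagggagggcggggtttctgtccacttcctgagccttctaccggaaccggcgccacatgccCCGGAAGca
Mrpl32: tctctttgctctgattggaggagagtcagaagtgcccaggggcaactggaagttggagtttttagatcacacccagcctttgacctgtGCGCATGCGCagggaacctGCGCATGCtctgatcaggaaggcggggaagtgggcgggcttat
Mrps31: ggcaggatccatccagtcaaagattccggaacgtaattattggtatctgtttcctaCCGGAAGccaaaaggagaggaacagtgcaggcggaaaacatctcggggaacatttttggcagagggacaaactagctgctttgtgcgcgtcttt
Mrpl23: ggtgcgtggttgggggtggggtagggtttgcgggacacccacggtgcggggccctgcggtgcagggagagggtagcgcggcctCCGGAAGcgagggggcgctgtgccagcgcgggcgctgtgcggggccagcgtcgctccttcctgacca
Mrpl53: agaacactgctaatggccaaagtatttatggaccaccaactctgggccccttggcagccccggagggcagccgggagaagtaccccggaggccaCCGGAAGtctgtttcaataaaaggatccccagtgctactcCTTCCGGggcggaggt
Mrpl42: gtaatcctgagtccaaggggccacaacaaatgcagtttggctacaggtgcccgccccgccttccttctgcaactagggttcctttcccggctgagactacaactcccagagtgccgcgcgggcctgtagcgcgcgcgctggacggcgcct
Mrps9: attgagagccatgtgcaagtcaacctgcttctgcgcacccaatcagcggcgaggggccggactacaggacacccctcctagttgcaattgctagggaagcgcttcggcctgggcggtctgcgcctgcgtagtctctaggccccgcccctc

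In these windows the ETS letters begin 139 bases before the start in Mrps18c, 9 bases before it in Mrpl33, 94 bases before it in Mrps31, 67 bases before it in Mrpl23, and 56 and 16 bases before it in Mrpl53. Mrpl32 holds NRF1 letters at 62, 60 and 43 bases before the start, and the first and second of these are overlapping matches on opposite strands. The longer windows of the reference table, from 250 bases before to 50 after the start, were found for 59 of the 73 genes. The ETS letters were in 20 of 59 (33.9%), beside 18.7% of 7927 genes tested on the arrays and 9.63% of all 27457 genes in the table. The YY1 letters were in 14 of 59 (23.7%), beside 6.02% and 3.62%, and the NRF1 letters in 5 of 59 (8.47%), beside 5.36% and 2.77%. By call, the ETS letters were in 7 of 11 higher genes, 2 of 5 lower genes and 11 of 43 genes that were not called. The YY1 letters were in 2 of 11, 1 of 5 and 11 of 43. These matches are a description of letters, and no test of the shares was made.

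Each CR level was also set against control by itself, as a ratio of 2 arrays with no test. At 5% CR, 8 of the 73 genes were past 1.5-fold higher and 6 past 1.5-fold lower, beside 20.7% and 14.7% of all probe sets tested. At 10% CR the counts were 10 and 9, beside 21.9% and 16.6%. At 20% CR they were 9 and 11, beside 22.6% and 17.1%, and at 30% CR 10 and 6, beside 19.5% and 13.7%. Of the 9479 named genes tested with 1 probe set each, 1518, 1588, 1647 and 1454 were past 1.5-fold higher at 5, 10, 20 and 30% CR. Those past 1.5-fold lower were 1311, 1505, 1610 and 1192. The median log2 differences of the family at 5, 10, 20 and 30% CR were 0.08, −0.01, −0.04 and 0.07. These 4 comparisons share the control array.

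The comparison among the CR arrays does not use the control array. A slope over CR level was fitted to the 4 CR arrays with limma. No gene of the family was called, and over all probe sets tested 0% were called. At an unadjusted p under 0.05 there were 3 of 73 genes (4.11%), beside 743 of 15521 probe sets (4.79%). These were Mrps18c with a slope of 0.23 on the log2 scale per 10 percentage points of restriction (unadjusted p = 0.0122), Mrps30 with 0.22 (unadjusted p = 0.0241) and Mrpl40 with −0.21 (unadjusted p = 0.0209). The largest slope was that of Mrps9 at 0.26 (unadjusted p = 0.156), and the adjusted p was 0.999 for all 4. The slope was upward in 42 of the 73 genes.

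The CR arrays were close to one another for most of the family. The SD over the 4 CR arrays had a median of 0.13 on the log2 scale, with a range of 0.02 to 0.47, beside a median of 0.20 over all probe sets tested. Those were dimmer, with a median control signal of 186.7 beside 501.5 for the family. The median SD was 0.10 in the brighter and 0.16 in the dimmer genes of the family. Over all named genes above and below the same brightness it was 0.11 and 0.21. For cytosolic ribosomal genes and for complex I genes it was 0.09. The ratio of the highest to the lowest CR signal had a median of 1.22, was smallest in Mrpl41 at 1.04 and largest in Mrps9 at 2.10. It was 1.5 or more in 8 genes, Mrps9, Mrps31, Mrpl3, Mrpl19, Mrps35, Mrps15, Mrps30 and Mrpl54.

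Of the 73 genes, 18 were measured by more than 1 probe set, which gave 24 further probe sets. Of these, 15 passed the filter, 10 with the same sign as the brightest probe set of the gene and 5 with the other sign, and 13 of 15 had the same call. Mrps9 was lower by its other probe set as well, with 191.4 in control and 120.6, 104.9, 74.5 and 96.0 at 5, 10, 20 and 30% CR (−0.97, adjusted p = 0.0434). Mrpl40 was higher by both, and its other probe set had 86.9 in control and 149.4, 147.8, 151.3 and 174.3 (0.84, adjusted p = 0.0257). For Mrpl40 the order of the CR levels differed between the probe sets, since the second was highest at 30% CR.

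The call differed between probe sets in 2 genes. Mrpl50 was lower by its brightest probe set, and the other had 261.9 in control and 315.4, 281.3, 317.2 and 272.8 (0.18, adjusted p = 0.495), in the opposite direction. Mrps18c was higher by its brightest probe set, and another had 68.0 in control and 97.4, 175.8, 153.8 and 106.4 (0.93, adjusted p = 0.082). On that probe set all CR arrays were above control too, but the signal did not follow the CR level. Among the genes that were not called, the sign differed for Mrpl12 (−0.01 and 0.48), Mrpl49 (−0.07 and 0.01), Mrps2 (−0.10 and 0.31) and 1 of the 3 further probe sets of Mrpl51 (−0.43 and 0.84). The second probe set of Mrpl10 was below the filter, at 208.9 in control and 57.5, 17.0, 11.4 and 41.1 in CR.

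**Figure D3:**
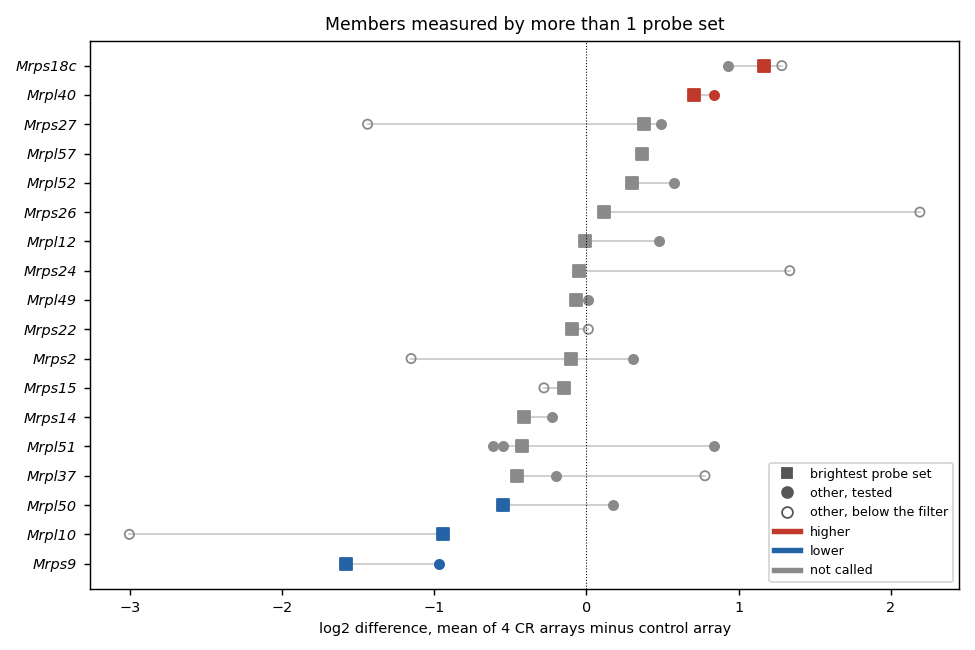
Mean log2 signal under CR minus log2 signal of control (horizontal axis) for every probe set of the 18 genes measured by more than 1, with squares for the brightest probe set, filled circles for others that were tested and open circles for those below the filter. The probe sets of Mrps9 (−1.58 and −0.97) and of Mrpl40 (0.71 and 0.84) lie on the same side, and those of Mrpl50 (−0.55 and 0.18) on opposite sides of 0.

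Proteins of the mitochondrial ribosome that go by other symbols also moved in both directions. Of 5 such genes, 1 was higher and 1 lower. Chchd1, a small subunit protein, had 838.8 in control and 1165.4, 1429.2, 1538.4 and 1496.3 at 5, 10, 20 and 30% CR (0.74 ± 0.18, adjusted p = 0.0076). Dap3, the GTP-binding protein of the small subunit, had 333.3 in control and 164.8, 181.9, 177.4 and 223.4 (−0.84 ± 0.19, adjusted p = 0.0187). Neither gene overlapped with control on any CR array.

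Genes that act with the mitochondrial ribosome were read from the same fit, in which 14.5% of all tested probe sets were higher and 11.0% lower. Of 8 mitochondrial translation factors tested, limma called 0, with a median of −0.16. At an unadjusted limma p under 0.05 there were Gfm1, an elongation factor, at 0.65 and Mtfmt, which formylates the initiator tRNA, at −0.83. Of 11 aminoacyl-tRNA synthetases and related amidotransferase subunits, 1 (9.09%) was lower, Kars1, which serves both the cytosol and mitochondria (−1.01 ± 0.03, adjusted p = 0.0012). Of 16 assembly and ribosomal RNA modification factors, 2 (12.5%) were lower, Mterf3 (−0.85 ± 0.14, adjusted p = 0.0084) and C1qbp (−0.75 ± 0.15, adjusted p = 0.0057), and none was higher, with a median of −0.24. Of 21 genes for mitochondrial RNA synthesis and processing, 2 (9.52%) were higher and 1 (4.76%) lower. The higher ones were Prorp, the protein-only RNase P that cuts tRNAs from mitochondrial transcripts (0.85 ± 0.19, adjusted p = 0.009), and Slirp, which stabilises mitochondrial messages (0.84 ± 0.10, adjusted p = 0.0018). The lower one was Tfb2m, the transcription factor that opens the mitochondrial promoter (−1.52 ± 0.27, adjusted p = 0.0167).

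Of 17 genes for import and mitochondrial membranes, 5 (29.4%) were lower and 1 (5.88%) higher, with a median of −0.17. The lower ones included the import channel Tomm40 (−0.76 ± 0.17, adjusted p = 0.0193), the prohibitin Phb2 (−0.76 ± 0.22, adjusted p = 0.0156) and the outer membrane channel Vdac2 (−0.75 ± 0.17, adjusted p = 0.0047). Timm10, a small chaperone of the space between the membranes, was higher (0.36 ± 0.04, adjusted p = 0.043).

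The family was also set beside the cytosolic ribosome, which makes its proteins, and complex I, which includes products of its translation. Of 38 cytosolic ribosomal protein genes tested, 24 were higher and 1 lower, with a median of 0.42. Rpl21 was the highest of those called (0.99 ± 0.17, adjusted p = 0.0012) and Rpl4 the lower one (−0.99 ± 0.15, adjusted p = 9.6e-04). Complex I was represented by all genes with a symbol starting with Nduf, Ndufa4 and Ndufa4l2 included, whether or not each protein belongs to the complex. Of 41 such genes tested, 20 were higher and 4 lower, also with a median of 0.42. The mitochondrial ribosomal genes, with 12 higher and 6 lower of 73 and a median of 0.00, had fewer higher calls in share than either group under MAS5 scaling. They were also dimmer, with a median control signal of 501.5 beside 4730.95 for the cytosolic ribosome and 1706.4 for complex I. The groups were not matched for brightness, along which the share of calls varied. The difference between the groups was not tested.

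**Figure D4:**
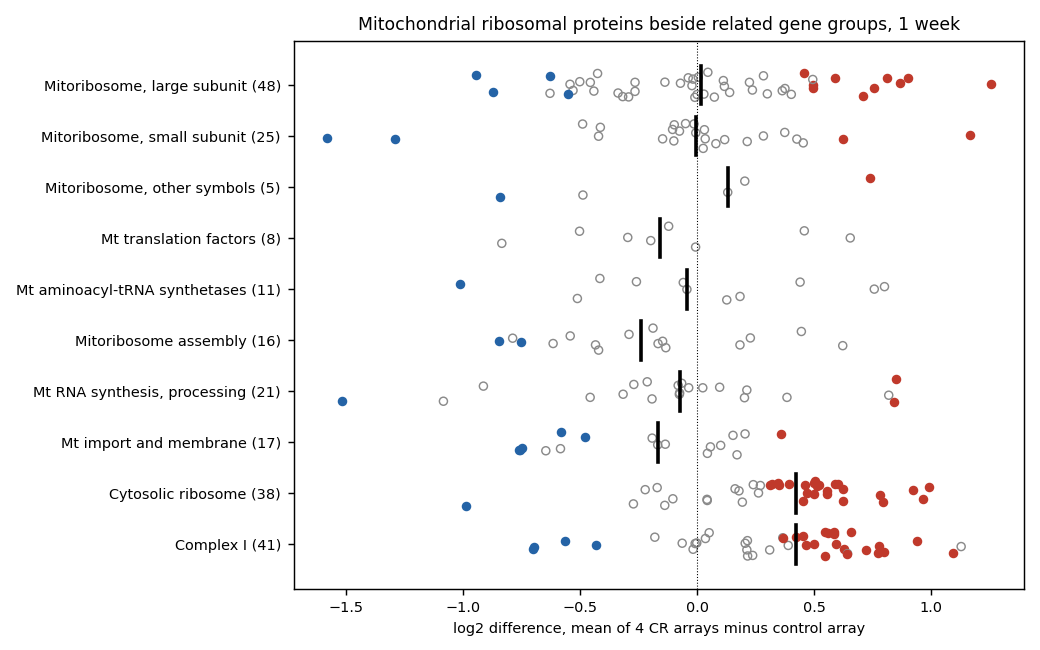
Mean log2 signal under CR minus log2 signal of control (horizontal axis) for the genes tested in each group, with the number tested in parentheses, filled points for called genes (red higher, blue lower), open points for those not called and a bar at the median of each group. The medians of the mitochondrial ribosome subunits are 0.02 and −0.01, and those of the cytosolic ribosome and complex I are both 0.42.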

How the data were processed

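RNA was pooled from 5 rats per group and measured on 1 array. The values deposited by the authors are signal intensity on a linear scale, made with MAS5 according to the submitters' processing notes. MAS5 subtracts mismatch signal, which makes logs of low values noisy. Detection calls were not used here. The platform annotation gave 1 symbol for 20832 of 31099 probe sets, several for 436 and no symbol for 9831. All 73 symbols of the family were found unchanged in the RefSeq gene table of GRCr8. The 1 month columns correlated at 0.036 to 0.052 with those of 1 week and were not used.

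R 4.3.3 with limma 3.58.1 and Python 3.11.15 (pandas 2.3.3, numpy 2.4.6, matplotlib 3.10.9) were used. Signals were taken as log2 after 4 zeros were set to 0.1. Probe sets above the 50th percentile of mean log2 signal were kept, 15521 in all, with 57 control probe sets left out. The 4 CR arrays were fitted against 1 control array (3 residual degrees of freedom, lmFit and eBayes with an intensity trend, Benjamini-Hochberg adjustment over all probe sets tested), and a slope over CR level was fitted to the CR arrays alone (2 residual degrees of freedom). The p-values reflect variation between CR pools. The number of arrays limits the precision. Values on all arrays are given for the 10 most changed called genes in each direction, the Mrps18 relatives and Mrpl12. They are also given for the 3 largest slopes and the 2 brightest and 2 dimmest genes. Up to 4 called genes per pathway list are named, with values on all arrays for Chchd1 and Dap3 and the mean difference for the others. The members and gene lists were chosen with earlier results of these data known. Alternatives were other scalings, filters and eBayes settings, a pseudocount of 13.7, the mean of the probe sets of a gene, each CR array left out, the slope with control as its 0% point, and a limit of 2-fold for single levels.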

Additional observations from a re-analysis of the deposited data

How the results depend on the processing

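Over 14 alternatives, 7 of the 18 called genes kept their call in every one they were tested in (Mrpl42, Mrps18c, Mrpl33, Mrpl43, Mrps9, Mrpl10 and Mrpl16), and 11 kept it in all alternatives other than the median scaling. Under the median scaling 4 genes were higher and 28 lower, with a median of −0.43. Among all tested probe sets this scaling gave 6.55% higher and 32.6% lower. The genes called lower under it included Mrpl12 (−0.45), Mrpl17 (−0.70), Mrps18a (−0.76) and Mrps30 (−1.07), which were not called under MAS5 scaling. Quantile scaling moved the family median to 0.10, with 17 higher and 5 lower calls, and cyclic loess gave 14 and 5, while eBayes without a trend left 3 lower calls and 8 higher ones. In share these were 4.11% and 11.0% of the family, beside 6.48% and 11.2% of all tested probe sets without a trend. Leaving out 1 CR array gave 11 to 12 higher calls, 6 to 7 lower calls and medians of −0.0029 to 0.065. The same fits called 12.6 to 14.6% of all tested probe sets higher and 9.64 to 11.8% lower. At 2-fold, 1, 1, 4 and 2 genes were higher and 2, 3, 4 and 1 lower at 5, 10, 20 and 30% CR, and under quantile scaling 14 were past 1.5-fold higher at 5% and 7 lower at 20%. No share over all probe sets was computed for these counts at single levels. The slope gave no call in any of 6 settings, with 656 to 1470 probe sets at an unadjusted p under 0.05. The adjusted p of Mrpl50 ranged from 0.00203 to 0.409 over its alternatives, and its call was also lost under quantile and cyclic loess scaling, without a trend and with its probe sets averaged. Without a trend the calls of Mrpl3, Mrps31, Mrpl23, Mrpl40, Mrpl41 and Mrpl53 were lost. The sign was followed over the alternatives in 24 genes, all called ones included, and among these it changed only in genes that were not called. It was not followed in the other genes of the family, although the median scaling lowered the difference of every gene. Mrps27 had −0.064 under the median scaling and Mrps18b 0.014 under quantile scaling. Mrpl12 had 0.10 under quantile scaling, 0.23 with its probe sets averaged, 0.030 with centring on the tested probe sets, 0.039 with cyclic loess, and −0.029 to 0.014 when 1 CR array was left out. The last 2 scalings were chosen after seeing the data. The cause of these changes was not tested. No paired analysis was possible because each group had 1 array and the labels give no replicate numbers. With 1 control array its own error cannot be measured.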

Other observations

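The 20 and 30% CR arrays were also set against the 5 and 10% arrays with limma, which leaves out the control array. At an unadjusted p under 0.05, 4 of the 73 genes differed, beside 783 of 15521 probe sets (5.04%), and none passed the adjustment. Mrps18c and Mrps30 were higher at the larger restrictions, by 0.45 and 0.46 on the log2 scale, and Mrpl3 and Mrpl40 were lower, at −0.43 and −0.37. The adjusted p of these 4 genes was 0.937.

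The genes of the family differ in size. On GRCr8 the median span from start to end was 6046.5 bases for the 12 higher genes, 15889 bases for the 6 lower genes and 6497 bases for the 55 that were not called. These spans are a description, and the difference was not tested.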
